A study of Homo sapiens with 30 samples.

Results

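LOUCY cells grown on OP9-GFP stroma were compared with the same cells grown in medium without stroma, in both cases without doxycycline (dox). The comparison rests on 6 arrays, 3 on OP9-GFP and 3 in medium, out of 30 arrays and 10 conditions in the series. The members were chosen by their labels alone: the line with the MEF2C construct, no dox, and either OP9-GFP or medium as the culture. LOUCY is a human early T cell progenitor leukemia line that expresses MEF2C, a MADS-box transcription factor, because of a rearrangement near that gene, and it carries no NOTCH1 or FBXW7 mutation. In all 6 arrays the cells also carried a lentiviral, dox-inducible, codon-optimized human MEF2C construct with a BFP reporter. The line was flow sorted after transduction and is a bulk line rather than a clone. OP9-GFP is the control form of OP9, a mouse bone marrow stromal line, and lacks the Notch ligand DL1 that OP9-DL1 carries. Total RNA was hybridised to Affymetrix HG U133 Plus 2.0 arrays. How long the cells stayed on stroma and how leukemia cells were parted from it before RNA was taken are not given in the sources used here. The methods name SCF, FLT3L and IL-7 for human cocultures, without saying whether the LOUCY cultures on the arrays received them. Whether replicate arrays were made from cultures grown apart is likewise not given, so a p-value here covers array-to-array spread only, and that spread may be technical.

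Stromal coculture changes what a leukemia cell is exposed to. Stromal cells release nutrients and cytokines, offer adhesion sites and can carry Notch ligands. A program that reads nutrient supply is the integrated stress response, in which kinases that sense amino acid shortage, misfolded protein, heme lack or viral RNA phosphorylate the translation factor eIF2, which lowers protein synthesis but raises translation of the transcription factor ATF4. ATF4 then raises genes for amino acid transport, amino acid synthesis and tRNA charging. Notch signaling in turn starts when a ligand on a neighboring cell releases the intracellular part of the receptor, which drives HES1 and other targets with the DNA-binding protein RBPJ and is needed for T cell commitment in the thymus.

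Of the gene lists examined, the integrated stress response had the largest median difference, with 25 of 30 genes lower on OP9-GFP and log2 differences down to -3.13 in SLC7A11, the cystine importer. INHBE, a TGF-beta family subunit, fell furthest of the named genes, to a mean of 2.66 on OP9-GFP, against 7.54 in medium. HES1, EPAS1, GZMA and EOMES rose, by log2 differences of 1.86, 1.58, 1.53 and 1.46, and 4 probe sets of the T cell receptor gamma locus were 2.15 to 2.30 higher. Most of the called genes, however, did not lie beyond the medium arrays of the other LOUCY lines in the series as well. SLC7A11, INHBE, HES1, EPAS1, GZMA and EOMES were among those that did not. Genes of ribosome biogenesis and of the actin cytoskeleton were more often higher than lower, and genes of cholesterol synthesis and of MHC class I presentation were more often lower. All levels are log2 signals after RMA, the authors' background correction, normalization and summary of the probes of a probe set. All differences are OP9-GFP minus medium on that scale. A gene was called at an adjusted p under 0.05 in limma with Benjamini-Hochberg adjustment over all 54613 probe sets tested.

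Short stretches of promoters are shown for genes of the integrated stress response and for HES1, because the DNA letters bound by their regulators are known. They are from RefSeq on GRCh38.p14 and are read 5′ to 3′ on the strand that holds the motif, with the motif in capitals. ATF4 binds with C/EBP partners to a composite element, here searched as TGATGNAA on both strands of a window of 300 bases that ends shortly after each start site. ASNS makes asparagine (chr7:97872459-97872486, minus strand, 68 bases before the start). CARS1 and AARS1 charge tRNA with cysteine and alanine (chr11:3057408-3057435 and chr16:70289676-70289703, both plus strand, opposite to the gene, 2 and 187 bases before the start). ATF3 is a stress-induced transcription factor (chr1:212565206-212565233, plus strand, 191 bases before the start). HES1 is a repressor and Notch target with 2 overlapping windows around TGGGAA, the core letters to which RBPJ binds (chr3:194136054-194136079 and chr3:194136068-194136093, plus strand, 84 and 70 bases before the start).
ASNS: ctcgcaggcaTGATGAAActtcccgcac
CARS1: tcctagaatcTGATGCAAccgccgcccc
AARS1: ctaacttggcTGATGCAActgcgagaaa
ATF3: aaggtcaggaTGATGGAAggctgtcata
HES1, first match: aaagttactgTGGGAAagaaagtttg
HES1, second match: aaagaaagttTGGGAAgtttcacacg
TGATGNAA was found in the promoters of 6 of the 22 lower integrated stress response genes with a promoter sequence, and of 1 of the 3 that did not pass the test, CHAC1, against 3.67% of all 27305 promoters. This shorter motif was chosen after the data were seen, and the HES1 windows were added then too. The longer form TGATGNAAT was in 0 of those 22 and in 1.02% of all promoters. TGGGAA stood in 24.3% of all promoters, in 1 of the 4 Notch-list genes that rose and in 5 of the 12 that did not pass. HES5, HEY2 and HEYL, which did not pass (-0.06, -0.18 and -0.04), held 2 matches each, as HES1 did. A match describes the letters of the window and not a site in use.

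Array medians over the whole series lay between 4.76 and 4.84, and there was no missing value. Because RMA normalizes the arrays to each other, these medians cannot show whether the arrays were alike in depth of signal. Arrays on OP9-GFP correlated with each other at r = 0.990 to 0.995, arrays in medium at r = 0.996, and arrays of different cultures at r = 0.988 to 0.992. No pair held the same values throughout, since at most 44 probe sets were equal. The T lineage markers had array means of 8.14 to 8.26 on OP9-GFP and 8.21 to 8.38 in medium, and CD3D, part of the CD3 complex, lay between 11.69 and 11.95 over the 6 arrays. Stromal markers had array means of 4.88 to 5.10 on OP9-GFP and 4.84 to 4.93 in medium. In bulk samples, fewer cells of a type and less RNA per cell cannot be told apart. The brightest MEF2C probe set read 10.13, 10.06 and 10.09 on OP9-GFP, and 10.28, 10.31 and 10.25 in medium. By that probe set MEF2C was slightly lower on OP9-GFP (-0.19, adjusted p = 0.0067), with no overlap between the groups. The same probe set fell with dox, averaging 9.20 in medium with dox against 10.28 without. Per the paper, most MEF2C probe sets fall outside the cloned cDNA and read endogenous MEF2C only, while another also covers the construct. It also reports that induction represses endogenous MEF2C. Its text does not name which probe set is which. A MEF2C probe set that was higher with dox (8.21 in medium with dox, against 7.68 without) read 7.83, 6.90 and 7.68 on OP9-GFP, and 7.62, 7.72 and 7.70 in medium without dox (-0.21, adjusted p = 0.38).

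Across the array, 840 probe sets were higher and 1168 lower on OP9-GFP at the study's criteria of a log2 difference beyond 0.6, p under 0.05 and q under 0.1, which is 1.54% and 2.14% of those tested. Taking each gene by its probe set of highest mean, 2129 genes rose (10.8% of 19775) and 2267 fell (11.5%). The median difference over all genes was -0.01.

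Medium cultures without stroma or dox were also measured in lines that carry an ICN construct (intracellular Notch), with or without the MEF2C construct, on 3 arrays each. Over the integrated stress response list, array means were 8.0 to 8.06 on OP9-GFP and 9.09 to 9.16 in medium of the same line, but 8.08 to 8.15 in medium of the MEF2C and ICN line and 8.41 to 8.45 in medium of the ICN line. The medium arrays of the MEF2C line were thus the highest of the 3 lines, and the other lines lay nearer to OP9-GFP. Of the 2129 genes higher on OP9-GFP, 539 (25.3%) lay above all 9 medium arrays of the 3 lines, and of the 2267 lower ones 686 (30.3%) lay below all 9. Line and construct cannot be told apart between these arrays. Whether stroma or something particular to the medium cultures of the MEF2C line goes with the differences was not tested. All rises and falls are relative to medium of the MEF2C line, and the comparison with other lines was added after the data were seen.

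The integrated stress response list held 30 measured genes, of which 0 rose, 25 fell and 5 did not pass the test, with a median difference of -1.06. Over all genes 10.8% rose and 11.5% fell, and every list that follows is read beside those shares. The mean over the list was 8.06, 8.04 and 8.0 on the OP9-GFP arrays, and 9.09, 9.10 and 9.16 on the medium arrays. The cultures did not overlap, and all 25 of the genes that fell had no overlap between their 3 and 3 arrays. Most called genes had none either: over all genes, 2103 of the 2267 that fell did not overlap. Set against all 9 medium arrays without dox, 6 of the 25 were lower on OP9-GFP than in every one: ATF4, ATF3, DDIT3, PHGDH, DDIT4 and CTH. The other 19 overlapped with medium arrays of the lines with the ICN construct.

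Among the transport genes, SLC7A11 on chromosome 4 read 7.24, 7.38 and 6.90 on OP9-GFP, and 10.24, 10.31 and 10.36 in medium. It was 8.75-fold lower on OP9-GFP (-3.13, SE 0.09, adjusted p = 7.0e-18), and 3 of its 3 probe sets were lower. In medium of the lines with the ICN construct its means were 7.14 with the MEF2C construct and 8.89 without it. SLC7A5, the leucine transporter, and its partner SLC3A2 fell by 1.46 and 1.04. The arginine and lysine transporter SLC7A1 fell by 0.57.

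Of the transcription factors, ATF4 read 11.43, 11.26 and 11.42 on OP9-GFP, and 12.21, 12.19 and 12.35 in medium, a difference of -0.88 (adjusted p = 2.9e-11). CEBPB, a C/EBP factor that pairs with ATF4, read 9.28, 9.30 and 9.25 on OP9-GFP, and 10.89, 10.94 and 10.97 in medium. Its difference of -1.65 was many times its spread in either culture, and its means in medium of the other lines were 9.13 (MEF2C and ICN) and 9.84 (ICN). DDIT3, which encodes the pro-apoptotic factor CHOP, read 7.34, 7.32 and 7.33 on OP9-GFP, and 8.67, 8.70 and 8.64 in medium (-1.34, adjusted p = 5.8e-11). The 3 OP9-GFP arrays were nearly equal and all lay below the medium arrays. ATF3 and CEBPG also fell, by 1.00 and 0.52. JDP2, an AP-1 family repressor outside the list, read 7.29, 6.93 and 7.19 on OP9-GFP, and 8.91, 8.98 and 8.84 in medium (-1.77, adjusted p = 1.8e-12).

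The response's brakes and effectors moved with it. TRIB3, a pseudokinase that is induced by ATF4 and feeds back on it, read 8.17, 8.16 and 8.16 on OP9-GFP, and 9.63, 9.81 and 9.76 in medium (-1.57, adjusted p = 9.4e-14). SESN2, a leucine sensor that restrains mTORC1, read 6.83, 6.61 and 6.85 on OP9-GFP, and 8.92, 9.13 and 9.38 in medium (-2.38, adjusted p = 1.2e-13). The groups lay far apart for both. DDIT4, another inhibitor of mTORC1, fell by 1.42, and VLDLR, a lipoprotein receptor, fell by 2.00.

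Enzymes of amino acid supply were lower as well. CTH, which makes cysteine from cystathionine, read 6.72, 6.92 and 6.50 on OP9-GFP, and 8.89, 8.94 and 8.90 in medium (-2.20, adjusted p = 4.6e-14). ASNS, which holds the ATF4 letters in its promoter, read 5.52, 5.65 and 5.58 on OP9-GFP, and 6.31, 6.48 and 6.66 in medium (-0.90, adjusted p = 6.7e-07). Both were separated fully between the cultures, which the rule for named genes required of CTH, and CTH had the larger change. PHGDH and PSPH of serine synthesis fell by 1.18 and 0.60. SHMT2 and MTHFD2 of mitochondrial one-carbon metabolism fell by 0.79 and 0.80, and PCK2, the mitochondrial PEP carboxykinase, fell by 1.61.

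The tRNA synthetases on the list fell together. CARS1 read 9.80, 9.84 and 9.78 on OP9-GFP, and 11.02, 11.12 and 11.12 in medium (-1.28, adjusted p = 1.3e-14). GARS1, AARS1, WARS1 and SARS1, for glycine, alanine, tryptophan and serine, fell by 1.19, 1.16, 1.08 and 0.65. The 5 genes that did not pass, CHAC1, STC2, ALDH1L2, NUPR1 and PSAT1, all had means under 5 in both cultures, where the array medians were 4.76 to 4.84.

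**Figure D1:**
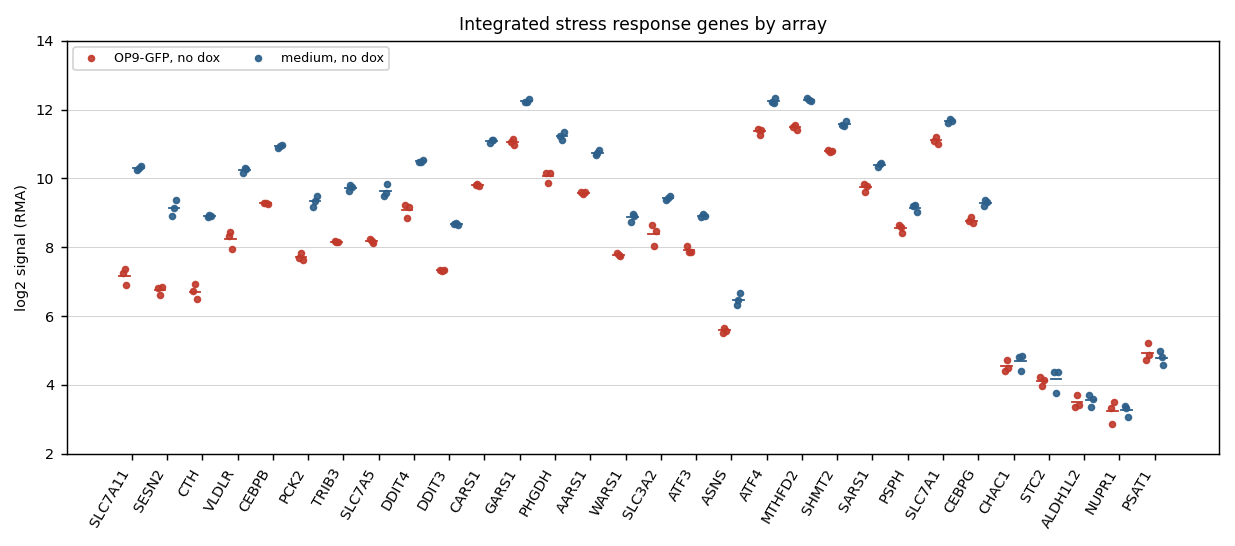
Log2 signal of the 30 integrated stress response genes on each array, with OP9-GFP (red) left of medium (blue) for each gene and short bars at the group means. The 25 genes that fell show no overlap between the cultures, and the 5 at the right, all with means under 5, did not pass the test. Over all genes, 2103 of the 2267 that fell also had no overlap.

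The unfolded protein response, the branch of stress signaling that reads misfolded protein in the endoplasmic reticulum, moved less evenly, with 2 of 15 genes higher, 5 lower and a median of -0.07. HERPUD1, which acts in endoplasmic reticulum degradation, read 9.03, 9.20 and 9.01 on OP9-GFP, and 10.25, 10.29 and 10.37 in medium (-1.23, adjusted p = 1.3e-13). XBP1 and DNAJB9 fell by 0.45 and 0.51, while HSPA5, the main chaperone of that compartment, was 0.16 higher and DNAJC3 0.31 higher. Of 9 cytosolic and mitochondrial heat shock genes, 5 rose and 0 fell, with differences of 0.47 for HSPH1 and 0.37 for DNAJA1. Of 8 metallothionein-list genes, 5 rose and 0 fell, among them the zinc exporter SLC30A1 (0.58) and MT1X (0.52). The 5 heat shock genes and the 5 metallothionein-list genes that rose were above all 9 medium arrays of the 3 lines.

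INHBE on chromosome 12 was the gene with the largest fall among those the naming rule chose. It read 2.45, 3.05 and 2.48 on OP9-GFP, and 7.37, 7.70 and 7.53 in medium. The difference was -4.88 (SE 0.19, adjusted p = 1.7e-15), or 29.4-fold lower, and its OP9-GFP values lay near the bottom of the array's range, where a fold on this scale depends on background correction. In medium of the other lines INHBE averaged 2.55 (MEF2C and ICN) and 3.40 (ICN), near OP9-GFP and far from medium of the MEF2C line. Other genes with large falls had roles outside the stress response. SUCNR1, the succinate receptor, read 3.35, 3.39 and 3.38 on OP9-GFP, and 5.95, 6.01 and 6.08 in medium (-2.64, adjusted p = 4.5e-12). USP44, a deubiquitinase of the spindle checkpoint, read 4.97, 5.65 and 4.64 on OP9-GFP, and 7.80, 7.84 and 7.80 in medium (-2.73, adjusted p = 6.1e-09). The USP44 arrays on OP9-GFP were spread over 1.01, those in medium over 0.04, and the groups did not overlap, which the naming rule required. CTSG, the granule protease cathepsin G, read 6.09, 6.14 and 6.25 on OP9-GFP, and 7.88, 7.99 and 8.03 in medium (-1.81, adjusted p = 3.5e-12). In medium of the MEF2C and ICN line and of the ICN line, SUCNR1 averaged 3.53 and 3.69 and USP44 4.69 and 4.17, while CTSG averaged 8.31 and 7.79. Of the 15 largest falls, 7 lay below all 9 medium arrays, CTSG and CTH among them.

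The other genes among the 15 largest falls were EXPH5, LINC-PINT, SEPTIN7P14, SNTG2-AS1, RDM1 and RBM20, with differences between -1.92 and -1.76. LINC-PINT, a long noncoding RNA, was lower in 1 of its 4 probe sets. SEPTIN7P14, a pseudogene whose probes can also read other SEPTIN7 copies, was lower in 2 and higher in 2 of its 6 probe sets. With the mean of all its probe sets it was at -0.12 (adjusted p = 0.31), so its call rests on the choice of probe set.

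HES1 on chromosome 3 read 7.40, 7.63 and 7.31 on OP9-GFP, and 5.56, 5.84 and 5.36 in medium. It was 3.63-fold higher on OP9-GFP (1.86, SE 0.10, adjusted p = 1.3e-12), with 2 of its 3 probe sets higher. All OP9-GFP arrays lay well above all medium arrays of the line, and the naming rule chose only genes without overlap. In the lines with the ICN construct, medium without dox had HES1 means of 9.34 with the MEF2C construct and 10.19 without it. The wider Notch list had 5 of 21 genes higher and 1 lower on OP9-GFP, with a median of 0.05. HEY1, a repressor of the HES family, read 5.52, 5.87 and 5.48 on OP9-GFP, and 5.0, 4.87 and 4.96 in medium (0.67, adjusted p = 3.3e-05). The receptor NOTCH1 was 0.47 higher, SHQ1 and TRIB2 were 0.33 and 0.19 higher, and the 1 lower gene was CR2 (-0.37). The direct targets NRARP and DTX1 had differences of -0.13 and 0.24 that did not pass. HES4 read 7.80, 5.47 and 7.80 on OP9-GFP, and 7.62, 7.04 and 7.65 in medium, with 1 array of OP9-GFP far below the others. On OP9-DL1, which carries the ligand, the list had a similar count and median against the same medium arrays. There, 6 of the 21 genes were higher and 1 lower, also with a median of 0.05. Between the stromas, however, 5 of the 21 were higher on OP9-DL1 and 0 lower, against 1.02% and 0.612% of all genes. HES1 was 3.75 above medium on OP9-DL1, against 1.86 on OP9-GFP.

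GZMA and EOMES are genes of cytotoxic lymphocytes. GZMA, the protease granzyme A, read 7.73, 7.79 and 7.41 on OP9-GFP, and 5.89, 6.28 and 6.18 in medium (1.53, adjusted p = 3.5e-12). EOMES, a T-box transcription factor, read 8.0, 7.99 and 7.96 on OP9-GFP, and 6.36, 6.54 and 6.67 in medium (1.46, adjusted p = 1.3e-12). The naming rule chose only genes without overlap between the cultures, and the EOMES arrays on OP9-GFP lay within 0.04 of each other. In medium of the MEF2C and ICN line and of the ICN line, EOMES averaged 8.05 and 7.87, and GZMA 7.42 and 10.77. The list of NK and cytotoxic genes as a whole did not move one way, with 2 of 14 higher and 3 lower. The 3 that fell were CST7 (-1.32), an inhibitor of granule cathepsins, the pore-forming PRF1 (-0.48) and CTSW (-0.33).

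Further genes with large rises had diverse roles. EPAS1, the hypoxia-inducible factor HIF-2alpha, read 7.70, 7.74 and 7.58 on OP9-GFP, and 5.95, 6.28 and 6.04 in medium (1.58, adjusted p = 7.4e-14). HDC, which makes histamine, read 6.67, 6.84 and 6.70 on OP9-GFP, and 5.05, 5.19 and 5.08 in medium (1.63, adjusted p = 6.7e-10). STS, steroid sulfatase, read 7.17, 7.26 and 6.94 on OP9-GFP, and 5.36, 5.68 and 5.66 in medium (1.56, adjusted p = 1.2e-11), with 4 of 4 probe sets higher. In all 3 genes the cultures were apart, which the naming rule required. In medium of the MEF2C and ICN line and of the ICN line, EPAS1 averaged 7.10 and 8.22, and HDC 6.67 and 6.80. SCN3A, a sodium channel subunit, rose by 1.82, SIPA1L2 by 1.47, MB, myoglobin, by 1.43, CXCR3, a chemokine receptor of effector T cells, by 1.26, and the probe set annotated MIR3682 by 1.57. Of the 15 largest rises, ME1, MIR3682, SIPA1L2, SPRY1, DUSP5 and RNF5 lay above all 9 medium arrays of the 3 lines.

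The largest mean rise under the naming rule, in the NADPH-producing malic enzyme ME1, rested on uneven arrays. ME1 read 4.65, 5.72 and 8.23 on OP9-GFP, and 4.11, 3.84 and 3.57 in medium. Its difference was 2.36 (SE 0.49, adjusted p = 9.4e-04), 1.34 without OP9-GFP replicate 3 and 3.13 without OP9-GFP replicate 1, and 1 of its 3 probe sets rose. RNF5, a ubiquitin ligase, was likewise uneven, at 5.25, 5.81 and 6.96 on OP9-GFP, and 4.93, 4.50 and 4.82 in medium (1.26, adjusted p = 9.9e-04), with 0.78 left without OP9-GFP replicate 3. Fitted on the 6 arrays alone, neither passed (adjusted p = 0.084 for ME1 and 0.066 for RNF5).

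**Figure D2:**
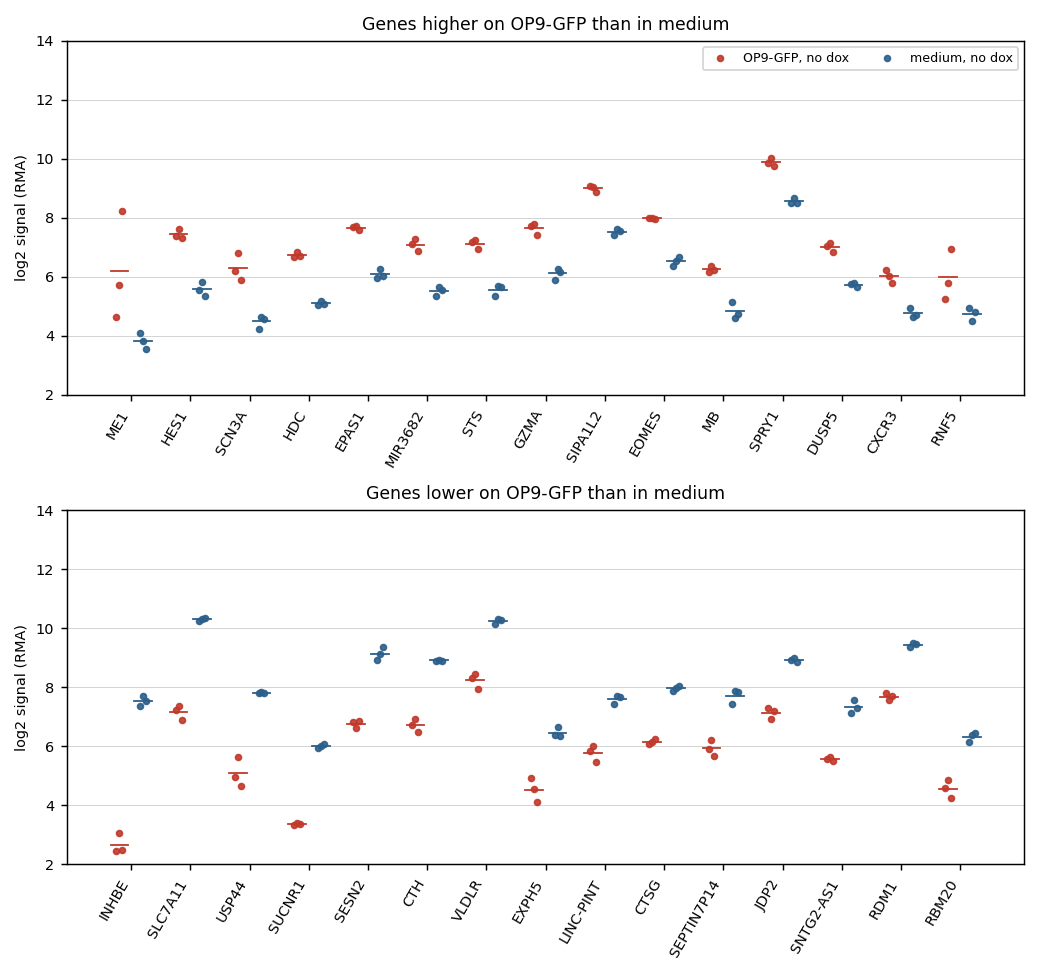
Log2 signal on each array of the 15 genes that rose most and the 15 that fell most under the naming rule, OP9-GFP in red and medium in blue. The OP9-GFP arrays of ME1 run from 4.65 to 8.23, wider than those of the other genes shown, and INHBE has the widest distance between cultures.

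Feedback regulators of ERK signaling and early response genes were partly higher. SPRY1, a Sprouty inhibitor of receptor tyrosine kinase signaling, read 9.85, 10.02 and 9.77 on OP9-GFP, and 8.50, 8.66 and 8.52 in medium (1.32, adjusted p = 5.2e-12). EGR1, an early response transcription factor, read 4.74, 5.82 and 5.57 on OP9-GFP, and 4.15, 3.87 and 4.06 in medium (1.35, adjusted p = 3.9e-05). SPRY1 was tight within each culture, EGR1 was not, and neither overlapped, which for SPRY1 the naming rule required. Of the 12 ERK feedback genes 5 rose and 1 fell, the others being DUSP5 (1.27), SPRY2 (0.48), IER3 (0.37) and DUSP6 (0.35), against ETV5 (-0.28). Of the 18 early response genes 5 rose and 1 fell. NR4A2 and FOSL2 were 1.17 and 0.59 higher, IER2 and MCL1 were 0.39 and 0.16 higher, and the 1 that fell was ATF3. Of the rises, 2 of the 5 ERK feedback genes and 1 of the 5 early response genes lay above all 9 medium arrays. The 1 fall of each list lay below all 9. ERK list means were 6.58 to 6.79 on OP9-GFP and 6.29 to 6.39 in medium of the same line. They were 6.62 to 6.69 in medium of the MEF2C and ICN line and 6.66 to 6.74 in medium of the ICN line.

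The actin and SRF target list had 8 of 14 genes higher and 2 lower, with a median of 0.38. SRF, the transcription factor that reads the actin pool through MRTF cofactors, read 8.80, 8.72 and 8.61 on OP9-GFP, and 7.88, 7.94 and 7.96 in medium (0.78, adjusted p = 6.3e-10). FHL2, a LIM-domain cofactor, read 9.11, 9.16 and 9.10 on OP9-GFP, and 8.24, 8.39 and 8.29 in medium (0.82, adjusted p = 3.8e-10). Both were fully separated. The tropomyosins TPM1 and TPM4 were 0.74 and 0.62 higher, whereas vinculin, VCL, and TGFB1I1 were lower (-0.27 and -0.45). In the fit of the 6 arrays alone, 5 of the 14 were higher. Of the 8 that rose, 5 lay above all 9 medium arrays of the 3 lines, SRF and FHL2 among them.

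Ribosome biogenesis genes were higher as well, with 11 of 16 genes up, 0 down and a median of 0.35. RRS1, a ribosome assembly factor, read 9.95, 10.02 and 9.90 on OP9-GFP, and 9.15, 9.19 and 9.08 in medium (0.82, adjusted p = 3.1e-10). UTP20 and NOP16 of ribosomal RNA processing were 0.71 and 0.65 higher, and ODC1, the first enzyme of polyamine synthesis, 0.57 higher. MYC itself had low means of 3.15 on OP9-GFP and 2.95 in medium, under the array medians, and its difference of 0.20 did not pass. MYCN averaged 10.34 on OP9-GFP and 10.09 in medium, 0.26 higher, and its OP9-GFP arrays lay above all 9 medium arrays. On the 6 arrays alone, 5 of the 16 list genes passed. Of the 11 that rose, 7 lay above all 9 medium arrays of the 3 lines, RRS1, UTP20, NOP16 and ODC1 among them. Cell cycle genes went both ways, 7 of 36 higher and 9 lower. The S-phase genes RRM2 (0.69), CCNE2 (0.48) and MCM5 (0.34) were among those that rose, and the mitotic kinase AURKB (-0.77) and BUB1 (-0.26) among those that fell.

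Lipid synthesis ran lower. Of 18 cholesterol synthesis genes 0 rose and 10 fell, with a median of -0.28. INSIG1, which holds SREBP in the endoplasmic reticulum and is itself an SREBP target, read 10.37, 10.51 and 10.22 on OP9-GFP, and 11.34, 11.35 and 11.20 in medium (-0.93, adjusted p = 1.0e-09). The cultures did not overlap. MSMO1, HMGCS1 and FDPS, enzymes of the pathway, fell by 0.77, 0.69 and 0.62, and the regulator SREBF2 fell by 0.31. The sterol element, searched as TCACNCCAC, was in the promoter of 1 of the 9 lower genes with a sequence, SREBF2, and in 1.15% of all promoters. Of 15 fatty acid synthesis genes 6 fell, among them ACSS2, which makes acetyl-CoA from acetate (-1.40), SREBF1 (-0.61) and the desaturase SCD (-0.54), and the 1 that rose was ME1. On the 6 arrays alone, 4 of the cholesterol genes were lower. The cholesterol list had array means of 8.99 to 9.09 on OP9-GFP, 9.36 to 9.42 in medium of the same line, 9.06 to 9.12 in medium of the MEF2C and ICN line and 9.32 to 9.37 in medium of the ICN line. Of its 10 lower genes, FDPS and STARD4 lay below all 9 medium arrays.

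Glycolysis and hypoxia genes did not move one way, with 5 of 34 higher and 5 lower. The glycolytic regulator PFKFB3 and the glucose transporter SLC2A1 were 0.76 and 0.65 higher. VEGFA, a hypoxia target and also a target of ATF4, and MXI1, a MYC antagonist, fell by 1.10 and 0.72.

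MHC class I presentation was lower, with 0 of 11 genes higher, 9 lower and a median of -0.43. PSMB9, an immunoproteasome subunit, read 10.03, 9.88 and 9.93 on OP9-GFP, and 10.54, 10.62 and 10.62 in medium (-0.65, adjusted p = 1.9e-08). HLA-B, a class I heavy chain, read 12.69, 12.72 and 12.60 on OP9-GFP, and 13.04, 13.01 and 13.07 in medium (-0.37, adjusted p = 4.1e-06). Neither overlapped, though class I heavy chains are alike in sequence and their probes can share signal. NLRC5, the transactivator of class I genes, and HLA-F fell by 0.53 and 0.60, and B2M by 0.16. TAP1 (-0.03) and PSMB8 (-0.18) did not pass. On the 6 arrays alone, 4 of the 11 were lower. The list's array means were 10.41 to 10.53 on OP9-GFP, 10.81 to 10.92 in medium of the same line, 10.57 to 10.60 in medium of the MEF2C and ICN line and 10.58 to 10.63 in medium of the ICN line. Of the 9 lower genes, 6 lay below all 9 medium arrays, HLA-B, NLRC5 and B2M among them. Of 25 interferon-stimulated genes 1 rose and 7 fell, with BST2 at -0.75, IFI44L at -0.69 and ISG15 at 0.24. Of 11 MHC class II genes 0 passed in either direction in limma, and their median was -0.05.

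**Figure D3:**
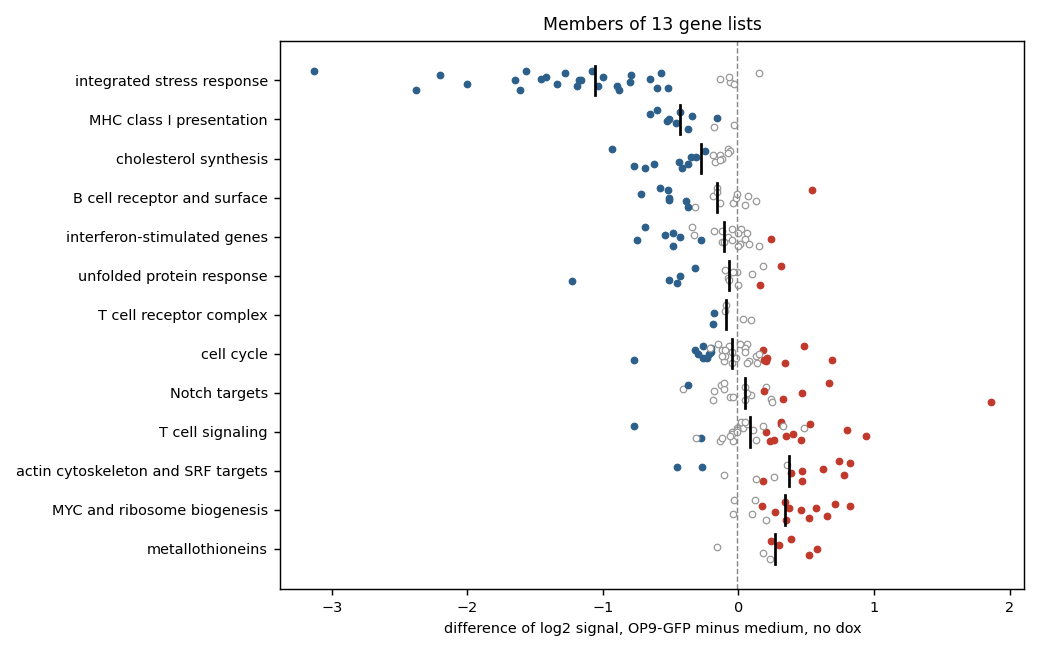
Differences between OP9-GFP and medium (log2) for the members of 13 gene lists, a point for each gene, filled red where it rose, filled blue where it fell and open where it did not pass, with a bar at the median of each list. The integrated stress response has its median at -1.06, the ribosome biogenesis and actin lists have theirs at 0.35 and 0.38, and the Notch list has its median at 0.05 with HES1 alone above 1.

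Among 32 T cell signaling genes 11 rose and 2 fell, with a median of 0.08. The adaptor TRAT1 (0.94), the kinase TXK (0.80) and the cytokine receptor chain IL2RB (0.53) were higher, and the costimulatory receptor CD28 (-0.77) and the kinase FYN (-0.28) were lower. Of the 11 that rose, 4 lay above all 9 medium arrays of the 3 lines, IL2RB among them, and of the 2 that fell 0 lay below. TRAT1 averaged 6.43 on OP9-GFP, but 7.51 in medium of the MEF2C and ICN line and 7.91 in medium of the ICN line. Of 6 T cell receptor complex genes 0 rose and 2 fell, CD3D (-0.19) and TRBC1 (-0.18). Genes of the T cell receptor gamma locus were not among the 6, because their probe sets carry several symbols, so they are given for the locus and not for a gene, and were chosen after their values were seen. The brightest of 4 such probe sets read 9.35, 9.46 and 9.23 on OP9-GFP, and 6.97, 7.23 and 6.94 in medium. It was 2.30 higher on OP9-GFP (adjusted p = 1.6e-15), and the other 3 were 2.15, 2.28 and 2.29 higher (adjusted p = 1.7e-15, 9.3e-15 and 2.5e-14), all without overlap. With dox its means were 6.19 on OP9-GFP and 4.92 in medium, and the effect without dox was 1.03 larger (adjusted p = 4.6e-05). On OP9-DL1 without dox it averaged 12.03, which was 2.68 higher than on OP9-GFP (adjusted p = 1.2e-16). Among T lineage transcription factors, 4 of 14 rose and 2 fell, with RUNX3 at 0.60 and TOX2 at -0.59.

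B lineage surface genes had 1 of 19 higher and 7 lower, with a median of -0.16. CD79A, the signaling chain of the B cell receptor, fell by 0.72, CD72 by 0.58, BTK by 0.52 and IGLL1 by 0.51, while the kinase LYN was 0.54 higher. On the 6 arrays alone, 3 were lower. None of the 7 lay below all 9 medium arrays of the 3 lines, where the array means of the list were 6.39 to 6.43 on OP9-GFP, 6.61 to 6.63 in medium of the same line and 6.17 to 6.42 in medium of the lines with the ICN construct. Among 17 B lineage transcription factors 5 rose and 4 fell. POU2AF1, a B cell coactivator, read 5.36, 5.77 and 5.21 on OP9-GFP, and 6.71, 7.13 and 6.90 in medium (-1.47, adjusted p = 2.8e-08), with no overlap. BACH2 and BCL6 fell by 0.68 and 0.47, and ID3, IKZF1 and EBF1 were 0.58, 0.46 and 0.39 higher. The summed B lineage markers had array means of 6.67 to 7.0 on OP9-GFP and 7.04 to 7.21 in medium.

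Of 23 homing receptors and integrins 3 rose and 7 fell. KLF2, which drives T cell egress genes, was 0.64 higher, and CCR7, the lymph node homing receptor, fell by 0.60. Of 14 BCL2 family genes 2 rose and 3 fell. PMAIP1, which encodes NOXA, and HRK fell by 0.79 and 0.63, and BIK was 0.69 higher. HBD, a globin, was the 1 erythroid-list gene of 11 that passed, at -1.65.

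The same stroma was compared with medium in the presence of dox, on 6 other arrays of the line. There, 1511 genes were higher (7.64%) and 2571 lower (13.0%), and 962 probe sets were higher (1.76%) and 1324 lower (2.42%) at the study's criteria. Genes higher in both comparisons numbered 1138, which is 53.5% of those higher without dox and 75.3% of those higher with dox. Genes lower in both numbered 1733, or 76.4% and 67.4%. Only 11 genes were called in opposite directions, and the differences correlated at r = 0.76 over 19775 genes, which are not independent replicates. The integrated stress response list had 25 of 30 genes lower without dox, and with dox 25 lower and 1 higher, with medians of -1.06 and -0.91.

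The test of the difference between the effects called 77 genes (0.389%) with a higher effect without dox and 20 (0.101%) with a lower one, or 113 (0.207%) and 49 (0.0897%) probe sets at the study's criteria. HES1 was among the 5 genes with the largest positive difference. Its effect was 1.86 without dox and 0.38 with dox (difference 1.48, SE 0.14, adjusted p = 1.4e-06). A second HES1 probe set had 1.99 without dox and 1.04 with dox, both past the test (adjusted p with dox = 1.1e-07), with a smaller difference of 0.95 (adjusted p = 0.0019). GZMA had effects of 1.53 without dox and 0.32 with dox, where its means were 8.56 on OP9-GFP and 8.24 in medium. SPRY1 likewise had 1.32 without and 0.17 with dox, where its means were 10.40 on OP9-GFP and 10.24 in medium. For both genes, within the MEF2C line, the medium arrays with dox were above every medium array without dox. For EOMES the effects were 1.46 without and 1.24 with dox, a difference of 0.22 (SE 0.11) that did not pass.

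The largest differences of effects were in genes that were low without dox. FCER1A, the IgE receptor alpha chain, read 2.65, 2.60 and 2.68 on OP9-GFP, and 3.26, 2.97 and 3.47 in medium, whereas with dox its means were 3.56 on OP9-GFP and 7.46 in medium. Its effects were -0.59 without dox and -3.91 with dox (difference 3.32, SE 0.20, adjusted p = 7.6e-10). MMP20, SHROOM3 and AQP4 had effects of -0.16, 0.03 and -0.13 without dox, and -1.96, -1.68 and -1.82 with dox. JCHAIN, the joining chain of polymeric antibodies, had -0.15 without dox and 1.86 with dox. SLC7A11 fell further without dox than with it (-3.13 and -2.53, adjusted p of the difference = 0.022), as did CTSG (-1.81 and -0.89), S100P (-1.61 and -0.15) and PTPRR (-0.98 and -0.02).

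Cells on OP9-DL1 without dox share the medium arrays with the comparison above, so their values are given side by side, and the gap to the medium arrays of other lines applies here too. Against medium, 2342 genes were higher (11.8%) and 2675 lower (13.5%) on OP9-DL1, with 1457 (2.67%) and 1385 (2.54%) probe sets at the study's criteria. The integrated stress response list again had 0 genes higher and 25 lower, with a median of -0.91 on OP9-DL1 and -1.06 on OP9-GFP. The test of OP9-DL1 against OP9-GFP called 201 genes higher (1.02%) and 121 lower (0.612%), and 211 (0.386%) and 91 (0.167%) probe sets at the study's criteria. DDIT4 and ATF3 were less low on OP9-DL1 than on OP9-GFP, with differences to medium of -0.80 and -0.57 on OP9-DL1 against -1.42 and -1.0 on OP9-GFP (adjusted p of the DL1 to GFP difference 5.6e-05 and 3.7e-04). SLC7A11 went the other way, at -3.49 on OP9-DL1 against -3.13 on OP9-GFP (adjusted p of the DL1 to GFP difference 0.033).

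Several genes that rose on OP9-GFP were higher still on OP9-DL1. HES1 averaged 9.34 on OP9-DL1, 7.45 on OP9-GFP and 5.59 in medium (SD 0.11, 0.17 and 0.24, n = 3 each), and the step between the stromas was 1.89 (adjusted p = 4.1e-12). HDC averaged 8.84 on OP9-DL1, 6.74 on OP9-GFP and 5.10 in medium. GZMA averaged 9.45 on OP9-DL1, against 7.64 on OP9-GFP and 6.12 in medium, and EPAS1 averaged 8.97, against 7.67 and 6.09. In these 4 genes the levels had the order OP9-DL1, OP9-GFP, medium with each step past the test. EOMES (0.16), DUSP5 (0.06) and SCN3A (0.06) did not pass between the stromas. SIPA1L2 and SPRY1, at -0.31 and -0.28, did not pass either.

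**Figure D4:**
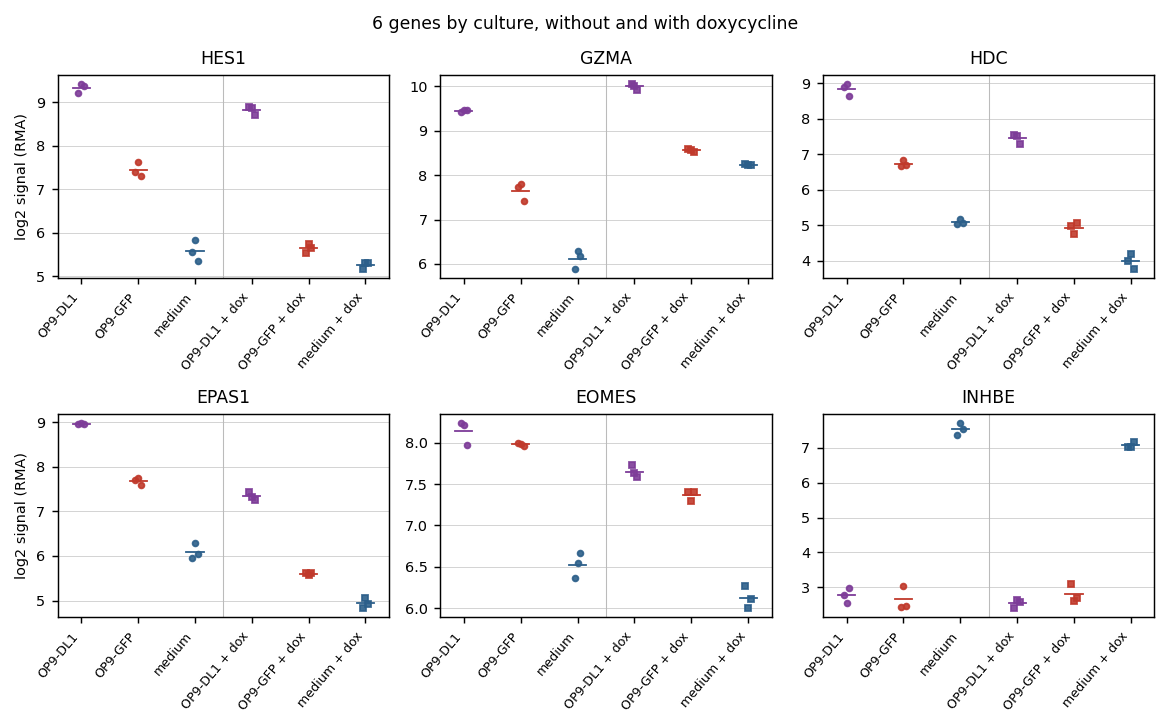
Log2 signal of 6 genes on each array, a panel for each gene, on OP9-DL1 (purple), on OP9-GFP (red) and in medium (blue), without dox at the left (circles) and with dox at the right (squares), with bars at the means. HES1 has means of 9.34 on OP9-DL1, 7.45 on OP9-GFP and 5.59 in medium without dox, while the INHBE mean is 2.77 on OP9-DL1, 2.66 on OP9-GFP and 7.54 in medium.

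Some of the probe sets that rose on OP9-GFP differed widely among the 3 arrays. Of the 840 higher probe sets, 86 spanned over 1 on the log2 scale between their OP9-GFP arrays, as did 31 of the 1168 lower ones. The array numbered 3 was highest in 73 of the 86, and for the same probe sets it was highest in 67 on OP9-GFP with dox, 66 on OP9-DL1, 54 on OP9-DL1 with dox and 36 in medium. Their median difference to medium was 0.50, 1.23 and 2.09 in OP9-GFP arrays 1, 2 and 3, against 0.76, 0.87 and 0.63 for the other probe sets called higher.

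A RAP1A probe set read 8.35, 10.31 and 11.86 on OP9-GFP, and 3.41, 3.82 and 3.84 in medium, while another of that gene, a Ras-like GTPase, read 10.40, 10.70 and 10.37 on OP9-GFP, and 10.51, 10.50 and 10.30 in medium. A probe set of COX6A1, a respiratory chain subunit, read 5.97, 8.03 and 10.03 on OP9-GFP, and 3.88, 4.13 and 3.93 in medium, while another read 12.11, 12.13 and 12.06 on OP9-GFP, and 12.29, 12.31 and 12.21 in medium. Of the 4 RAP1A probe sets, another was also uneven, at 6.22, 8.99 and 10.32 on OP9-GFP and 4.47, 3.43 and 3.93 in medium (4.56, adjusted p = 2.8e-06), and the other 2 did not pass the test. MARCKS, a membrane-bound substrate of protein kinase C, was higher in 2 of 5 probe sets, with 6.30, 8.56 and 10.10 on OP9-GFP, and 3.19, 2.76 and 3.29 in medium in the more extreme.

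Of 29 measured stromal genes 6 rose and 3 fell, with a median of 0.04. The mean of the list was 4.88, 5.02 and 5.10 on the OP9-GFP arrays, and 4.93, 4.84 and 4.84 on the medium arrays. LOX, which crosslinks collagen, read 3.64, 4.49 and 6.18 on OP9-GFP, and 2.84, 2.43 and 2.96 in medium (2.02, adjusted p = 2.7e-04). Another LOX probe set was lower on OP9-GFP (-0.31, adjusted p = 0.036), and 1 more did not pass (0.25). COL1A2 and COL6A3 were 0.80 and 0.72 higher, and DCN, SPARC and FBN1, also stromal matrix genes, fell by 0.28, 0.33 and 0.46. COL3A1, a fibrillar collagen, was at -0.14 by its brightest probe set and did not pass, but another of its probe sets read 2.71, 4.05 and 5.32 on OP9-GFP, and 2.56, 2.17 and 2.74 in medium (1.54, adjusted p = 0.0014), and 1 more was 1.05 higher (adjusted p = 0.0076). MEIS1, a HOX cofactor of progenitors, was likewise uneven, with 3.22, 4.44 and 6.29 on OP9-GFP and a difference of 1.93 (adjusted p = 8.2e-04). The part of mouse stromal RNA in these uneven probe sets was not tested. The stress response genes, HES1, GZMA and EOMES had no such span, and the part of mouse stromal RNA in their probe sets was not tested either.

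**Figure D5:**
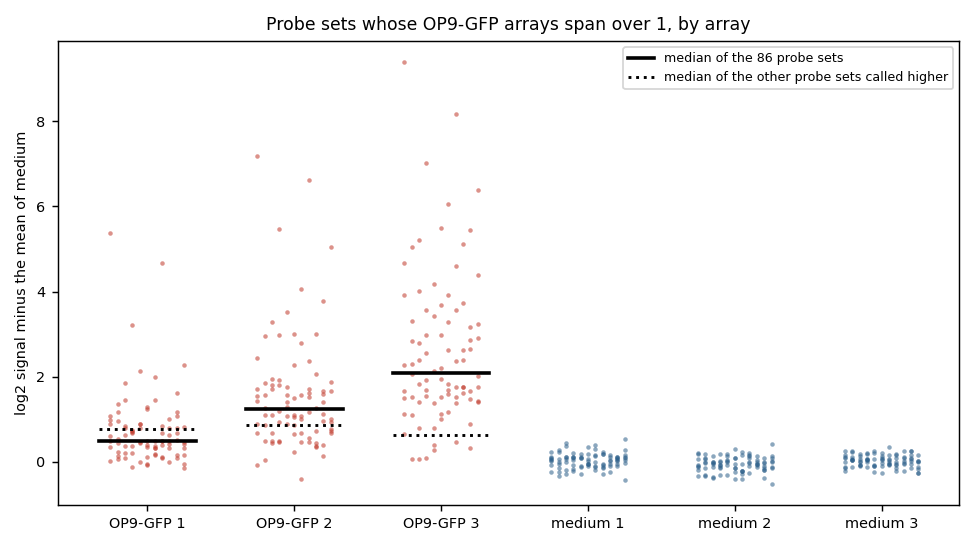
Log2 signal minus the mean of the medium arrays for the 86 higher probe sets whose OP9-GFP arrays span over 1, a point for each probe set on each array. Solid bars mark their medians of 0.50, 1.23 and 2.09 on OP9-GFP arrays 1, 2 and 3, and dotted bars mark 0.76, 0.87 and 0.63 for the other probe sets called higher.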

How the data were processed

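The deposited values are log2 signals that the authors made by RMA from Affymetrix HG U133 Plus 2.0 arrays, with R 3.6.3 and affy 1.64.0 per the submitters' processing notes. They were used as deposited. Of 54675 probe sets, 62 controls were left out. Platform annotation gave 1 gene symbol to 41097, several to 1801 and none here to 11777, and 41043 matched RefSeq by gene identifier. Each gene was represented by its brightest probe set on average across all 30 arrays. limma 3.58.1 in R 4.3.3 fitted all 30 arrays with 10 conditions and no covariate (20 residual degrees of freedom), following the study's use of limma, with Benjamini-Hochberg adjustment over 54613 probe sets. The script was tested on simulated data. The number of arrays limits the precision. Detection calls were not used.

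Named genes were the 15 largest rises and falls with an adjusted p under 0.05, no overlap of arrays, 1 symbol and a mean of at least 6 in the higher group, the 5 largest differences of effects each way, and list members. Probe sets in the section on uneven arrays and those of the T cell receptor gamma locus were chosen after their values were seen, and so was the comparison with medium of the other lines. The members and lists were chosen with earlier results of these data known. Alternatives were leaving out each array, the 6 or 18 arrays alone, a filter at a mean of 5, renewed quantile normalization, the mean of a gene's probe sets, a replicate block, other thresholds and the methods' t-test.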

Additional observations from a re-analysis of the deposited data

Results flagged for a closer look

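The genes given here were picked out because the difference between OP9-GFP and medium was not the same without and with dox, by the test of that difference in limma over 54613 probe sets. Each value is the log2 effect without dox minus the effect with dox. Among all genes, 77 had a higher and 20 a lower effect without dox.

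The largest positive differences were in FCER1A 3.32 (-0.59 without and -3.91 with dox, adjusted p = 7.6e-10), MMP20 1.80 (-0.16 without and -1.96 with dox, adjusted p = 3.0e-04), SHROOM3 1.71 (0.03 without and -1.68 with dox, adjusted p = 5.4e-06), AQP4 1.70 (-0.13 without and -1.82 with dox, adjusted p = 1.5e-05) and HES1 1.48 (1.86 without and 0.38 with dox, adjusted p = 1.4e-06). Further genes with a larger rise without dox were STS 1.29 (1.56 without and 0.27 with dox, adjusted p = 5.4e-06), GZMA 1.21 (1.53 without and 0.32 with dox, adjusted p = 4.1e-06), SPRY1 1.15 (1.32 without and 0.17 with dox, adjusted p = 1.2e-06), EPAS1 0.92 (1.58 without and 0.67 with dox, adjusted p = 2.2e-05), CXCR3 0.83 (1.26 without and 0.42 with dox, adjusted p = 0.044), SIPA1L2 0.76 (1.47 without and 0.71 with dox, adjusted p = 0.0028), NR4A2 0.75 (1.17 without and 0.42 with dox, adjusted p = 0.046), FHL2 0.52 (0.82 without and 0.29 with dox, adjusted p = 0.0023) and SRF 0.46 (0.78 without and 0.33 with dox, adjusted p = 0.0078). Genes with an effect above 0 without dox and below 0 with dox were SMAD6 0.70 (0.20 without and -0.50 with dox, adjusted p = 0.027), TRIB2 0.60 (0.19 without and -0.41 with dox, adjusted p = 9.6e-05), JUN 0.60 (0.24 without and -0.35 with dox, adjusted p = 0.032), MYCN 0.56 (0.26 without and -0.30 with dox, adjusted p = 0.0045), PRKCH 0.49 (0.20 without and -0.29 with dox, adjusted p = 0.0047), IKZF1 0.48 (0.46 without and -0.03 with dox, adjusted p = 0.0069) and TOX 0.38 (0.16 without and -0.22 with dox, adjusted p = 0.021). Genes below 0 in both, and further below with dox, were LIG4 0.80 (-0.33 without and -1.13 with dox, adjusted p = 6.6e-04), TP53INP1 0.53 (-0.66 without and -1.19 with dox, adjusted p = 0.0094) and TAP1 0.50 (-0.03 without and -0.53 with dox, adjusted p = 0.03).

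Genes further below 0 without dox were SLC7A11 -0.60 (-3.13 without and -2.53 with dox, adjusted p = 0.022), HBD -0.88 (-1.65 without and -0.77 with dox, adjusted p = 0.008), CTSG -0.92 (-1.81 without and -0.89 with dox, adjusted p = 0.0018), PTPRR -0.96 (-0.98 without and -0.02 with dox, adjusted p = 0.0043) and S100P -1.46 (-1.61 without and -0.15 with dox, adjusted p = 3.8e-04). Genes near 0 without dox and above it with dox were FAT3 -1.27 (-0.16 without and 1.11 with dox, adjusted p = 0.0017) and JCHAIN -2.01 (-0.15 without and 1.86 with dox, adjusted p = 1.5e-08).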

How the results depend on the processing

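Of 508 values of single genes under the alternatives, 505 kept their direction and their side of the threshold. The other 3 kept their direction without passing: ME1 (2.36, adjusted p = 0.084) and RNF5 (1.26, adjusted p = 0.066) in the fit of the 6 arrays alone, and SEPTIN7P14 (-0.12, adjusted p = 0.31) with the mean of its probe sets. Of 180 counts, 165 stayed within 1.5 times. On the 6 arrays alone, members lower numbered 4 for MHC class I, 4 for cholesterol synthesis and 3 for B cell surface, and members higher 5 for ribosome biogenesis and 5 for the actin list. On the 18 arrays of this line, 30 probe sets had a lower effect without dox than with it, against 49, and 54 were lower on OP9-DL1 than on OP9-GFP, against 91, or 40 at a mean of at least 5. OP9-GFP against medium gave 336 higher and 620 lower by the methods' t-test (723 and 1096 at their unadjusted p and fold), 146 and 260 at an adjusted p under 0.05 with a log2 difference beyond 1, and 5010 and 4804 with no fold threshold. Without single arrays these counts ran from 760 to 1117 and from 1048 to 1409, with both the 1117 and the 1048 without OP9-GFP replicate 3. The count of lower effects without dox ran from 35 to 101, the 101 without OP9-GFP replicate 1, and the higher from 88 to 165. With a replicate block the counts were 840 and 1168, the actin list had 9 higher members, no count moved by over 1.5 times, and same-numbered arrays on OP9-GFP and in medium correlated at -0.13, 0.18 and 0.07, so the numbers were not taken as pairs. For OP9-DL1 and OP9-GFP these correlations were -0.04, 0.04 and 0.12, and a block, added after the data were seen, gave 211 higher and 99 lower. Causes were not tested. An alternative added after the data were seen left out the 86 uneven probe sets, leaving 754 higher. Without detection calls, low signals cannot be told from background.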
